A study of Macaca mulatta with 32 samples.

Results

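Circular RNAs (circRNAs) of 8 genes of insulin signalling, the mTOR kinase complexes and longevity regulation were described in rhesus macaque brain. The genes were IGF1R, INSR, MTOR, RPTOR, RICTOR, FOXO1, FOXO3 and SIRT1. Members were all circRNAs whose host gene symbol was one of these names, which gave 60 of 52828 circRNAs, from 7 of 8047 host genes. FOXO3, a forkhead transcription factor, had 0 circRNAs under its symbol or its Ensembl ID in the table analysed here.

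The samples were RNA of 8 brain regions: the cerebellar cortex (CB), the dentate gyrus (DG) and CA1 field of the hippocampus, and neocortex of the occipital (OC), parietal (PC), temporal (TC), posterior cingulate (PCC) and prefrontal (PFC) areas. Each region gave 4 libraries, from 10-year-old females, 10-year-old males, 20-year-old females and 20-year-old males, and each library mixed RNA of 2 animals, 8 animals in all. No treatment or genotype separated the animals, and all libraries were depleted of ribosomal and linear RNA, the latter with RNase R. The 16 libraries of an age or of a sex therefore rested on 2 pools of animals, and p-values measured the spread between libraries that share animals.

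A circRNA forms when a downstream splice donor joins an upstream acceptor, and it is counted by reads that cross this back-splice junction. Insulin and insulin-like growth factors act through the receptor kinases INSR and IGF1R, which signal through PI3K and AKT to the mTOR kinase. MTOR works with RPTOR in mTORC1, which drives protein synthesis and growth, and with RICTOR in mTORC2, which phosphorylates AKT. AKT keeps FOXO transcription factors out of the nucleus, and the deacetylase SIRT1 acts on FOXO proteins. The pathway is known for its effect on lifespan in model animals.

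The deposited unit was TPM, and dividing a library's values by its own constant returned whole back-splice reads. A library held 18813 (CB, 10-year-old females) to 894932 back-splice reads (PCC, 20-year-old females), 7159279 in all, and 1 read was worth 18.7 TPM in the first and 0.306 TPM in the second. The smallest value above 0 stood for 2 reads, so a 0 means fewer than 2 reads. The 20-year-old libraries held 4526599 reads and the 10-year-old ones 2632680. In 5 libraries (PFC and PCC of 20-year-old females, PC of 10-year-old males, CA1 and DG of 20-year-old males), over 95% of reads passed as clean in the study's sample table. These 5 held 44.5% of member reads and 38.8% of all reads. Of the cell type markers looked up, circRNAs of cerebellar granule cell markers (4 of 6 in the table) summed to 59.8 to 189 TPM in CB, at most 33.0 TPM in neocortex and 0 in hippocampus. Most of these reads came from GRM4 (321), beside 15 of GABRA6, 10 of FAT2 and 5 of ZIC1. Markers of dentate granule cells (0 of 2) and microglia (0 of 4) had no circRNA here, so the label DG could not be checked this way.

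CircRNAs of these genes held few reads each, as did most others. The 60 circRNAs held 1787 reads, 0.025% of all back-splice reads. Their median was 12 reads, against 14 for the other circRNAs with a host gene symbol. As host genes, INSR, RICTOR and MTOR had more reads than 73.8%, 78.2% and 79.3% of all host genes, and RPTOR than 69.85%. The values for FOXO1, IGF1R and SIRT1 were 32.6%, 35.7% and 41.9%. Of their 1920 values, one per circRNA and library, 155 were above 0 (8.07%, against 11.7% in the whole table), and 71.0% of those rested on 2 to 10 reads. Of the members, 30 of 60 were found in a single library, compared with 53.1% of the other circRNAs with a host gene symbol. No member was found in all 8 regions, and the most widespread were found in 6. Between libraries, the number of member circRNAs found ran from 0 in DG of 10-year-old males to 12 in CB of 10-year-old males, and it varied with the number of all circRNAs found (Pearson's r = 0.855 over 32 libraries that share depth with both counts) and less closely with log10 of a library's reads (r = 0.587).

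In structure the members resembled other circRNAs of the table. Exons gave 52 of the 60 (86.7%, against 83.7% of the others) and introns 8. The median span on the genome was 8854 bases, against 6290 for the others, and 6 circRNAs spanned under 600 bases while 4, all of RPTOR, spanned 50000 bases or more. An end site was shared with another circRNA by 45 members (75%, against 73.2% of the others). These shares were compared without a test.

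**Figure D1:**
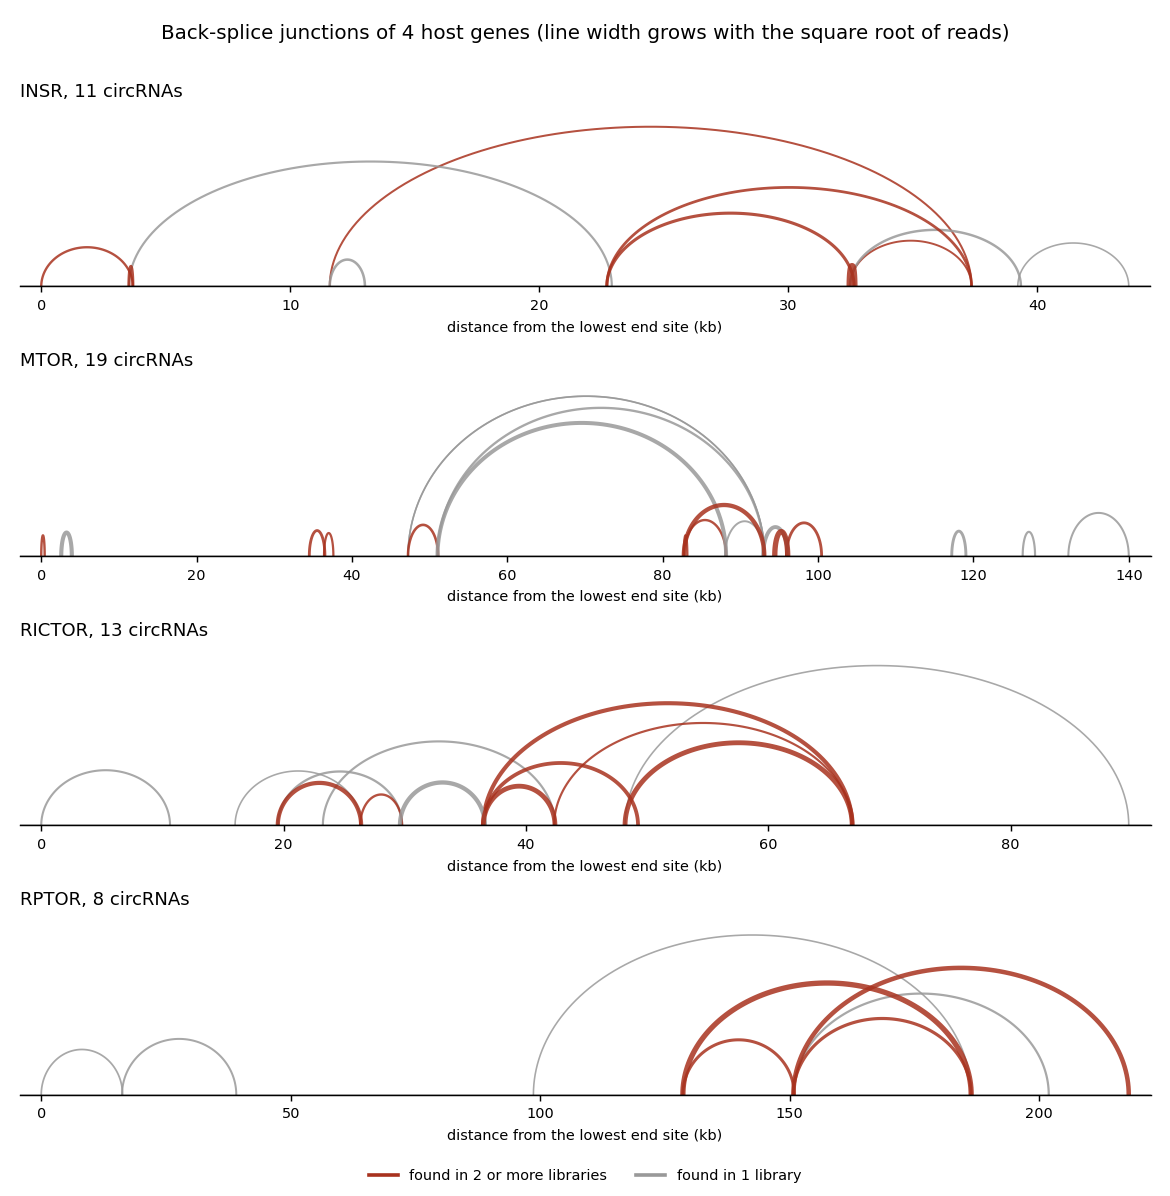
Back-splice junctions of INSR, MTOR, RICTOR and RPTOR. Each arc joins the ends of 1 circRNA, the x axis is the distance in kb from the lowest end site of the gene, line width grows with the square root of reads, and grey arcs were found in a single library. Arcs meet at shared end sites, and the longest span 87726 bases in RPTOR.

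The insulin receptor gene INSR (ENSMMUG00000028907, chromosome 19, minus strand) gave 11 circRNAs with 364 reads, all exonic, over 20 of 32 libraries. Positions here are those of the table, whose genome build is not given in the sources used here. Its main circRNA spanned 168 bases (chromosome 19, 7025932 to 7026099) and held 230 reads in 12 libraries, 63.2% of the INSR reads. It was at 52.2 TPM in PFC of 20-year-old females (64 reads), 28.6 and 25.0 TPM in CB of 10-year-old males and 20-year-old females, 17.4 TPM in TC of 20-year-old males, and 1.94 to 16.3 TPM in the other 8 libraries. It was at 0 in all 8 hippocampal libraries. Its lower end site, the splice donor on the minus strand, served 3 circRNAs with 248 reads (68.1% of INSR reads), and its upper end, the acceptor, served 2 with 258 reads. The gene for the other receptor, IGF1R (ENSMMUG00000012305, chromosome 7, plus strand), gave 6 circRNAs with 37 reads in 7 libraries. The main one, of 546 bases (78711688 to 78712233), held 16 reads: 8 in DG of 20-year-old males (7.03 TPM), 5 in OC of 10-year-old females (2.96 TPM) and 3 in CB of 20-year-old females (3.26 TPM). The other 5 IGF1R circRNAs were each found in 1 library with 2 to 7 reads.

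MTOR (ENSMMUG00000019325, chromosome 1, minus strand), the kinase of both complexes, gave the most circRNAs, 19, with 529 reads in 23 libraries. More reads came from MTOR than from 79.3% of the 8047 host genes. The main MTOR circRNA spanned 1663 bases (14312043 to 14313705) and held 124 reads in 12 libraries. It was highest in CA1 of 10-year-old females (30.5 TPM, 10 reads), at 19.6, 15.0 and 8.79 TPM in 3 of the 4 CB libraries, and at 4.73 to 13.8 TPM in the other 8, all neocortical. It was at 0 in PFC and DG. Its upper end site carried 33.5% of MTOR reads over 2 circRNAs, while 4 circRNAs met at 14310693 and 3 at 14300335. Of the 19, 10 were found in a single library.

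RICTOR (ENSMMUG00000001611, chromosome 6, minus strand), the mTORC2 subunit, gave 13 circRNAs with 492 reads in 25 libraries, the widest of the 7 genes. Its reads were spread over several circRNAs, in contrast to INSR. The largest held 98 reads in 6 libraries (38832198 to 38850942, 19.9% of RICTOR reads), at 26.5 TPM in PC of 10-year-old males, 15.9 TPM in TC of 20-year-old males and 5.94 to 13.5 TPM in 4 others. A circRNA of 30438 bases (38820505 to 38850942) was found in 11 libraries with 63 reads, from 2.37 to 25.7 TPM. The 3 circRNAs that shared the lower end 38820505, the splice donor on this strand, held 42.3% of RICTOR reads, over 19 libraries.

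RPTOR (chromosome 16, plus strand), the mTORC1 subunit, gave 8 circRNAs with 281 reads in 14 libraries. Its Ensembl ID in the table (ENSMMUG00000012791) is not the one the gene name list used here gives for RPTOR, so the symbol rests on the table. The main RPTOR circRNA spanned 57772 bases (76184635 to 76242406) and held 124 reads: 61 in CA1 of 20-year-old males (17.6 TPM), 44 in PCC of 20-year-old females (13.4 TPM), and 5 to 8 in PFC and OC of 20-year-old males and OC of 10-year-old females (2.70 to 4.03 TPM). The first 2 of these are among the 5 libraries with over 95% clean reads. No RPTOR circRNA was found in TC.

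The longevity genes gave few. SIRT1 (ENSMMUG00000030531, chromosome 9, minus strand) had 2 circRNAs that shared their upper end, with 54 reads in 6 libraries. The shorter, of 1712 bases (69364369 to 69366080), held 49 reads and was at 21.8 TPM in CA1 of 10-year-old males (6 reads), 16.2 TPM in PC of 10-year-old females (25 reads), 6.01 TPM in CB of 10-year-old males, 5.54 TPM in PFC of 20-year-old males and 1.62 TPM in OC of 20-year-old males. FOXO1 (ENSMMUG00000030780, chromosome 17, minus strand) had 1 intronic circRNA of 2077 bases (19713197 to 19715273) with 23 reads in PCC of 20-year-old females (7.03 TPM) and 7 in OC of 20-year-old males (3.78 TPM).

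**Figure D2:**
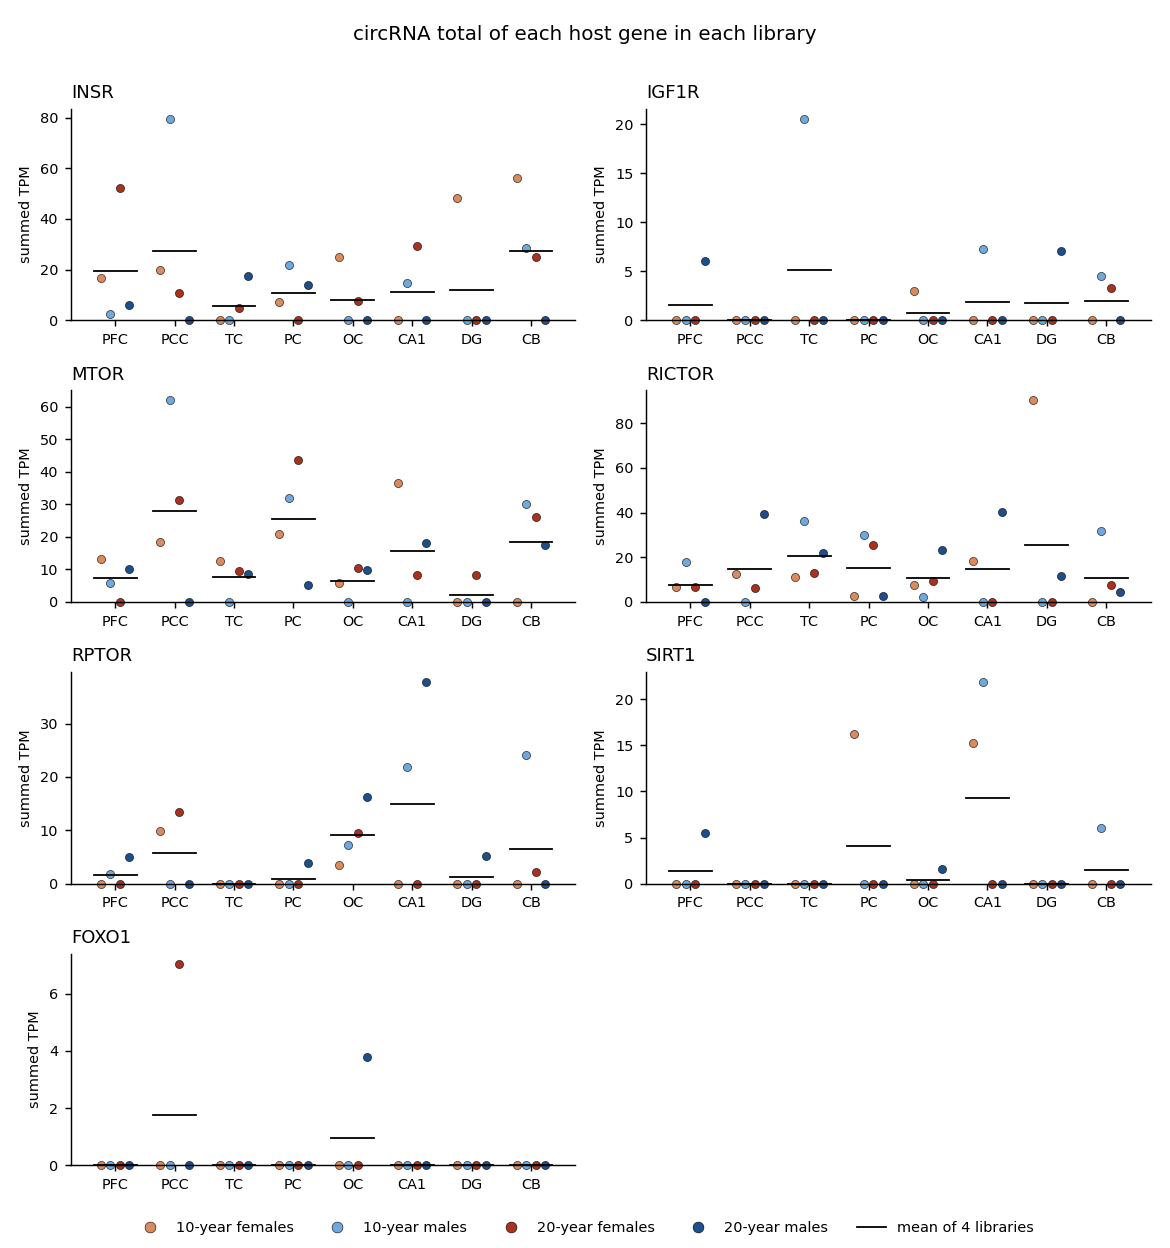
Summed TPM of all circRNAs of each host gene in each library, by region, with a point per library coloured by pool and a line at the mean of the 4 libraries of a region. Zeros are frequent in all 7 genes, and values of 1 region often run from 0 to the highest of the gene, as for INSR in PCC (0 to 79.6 TPM).

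Host gene totals, the sum of TPM over the circRNAs of a gene, varied widely within regions. INSR ran from 0 to 79.6 TPM with a mean of 15.2 ± 19.8 TPM (SD, n = 32), and its region means from 5.53 ± 8.22 TPM in TC to 27.5 ± 35.7 TPM in PCC (SD, n = 4). MTOR ran from 0 to 61.9 TPM (mean 13.9 ± 15.0 TPM), and its region means from 2.05 ± 4.11 TPM in DG through 25.3 ± 16.4 TPM in PC to 27.9 ± 26.1 TPM in PCC. RICTOR ran from 0 to 90.2 TPM (mean 14.9 ± 18.5 TPM), and its region means from 7.76 ± 7.44 TPM in PFC to 25.4 ± 43.6 TPM in DG, where 1 library at 90.2 TPM (15 reads in a library of 43202) stood beside values of 0, 0 and 11.4 TPM. RPTOR ran from 0 to 37.8 TPM (mean 5.04 ± 8.86 TPM), with 0 in all 4 TC libraries, 9.12 ± 5.31 TPM in OC and 14.9 ± 18.4 TPM in CA1. In OC RPTOR was found in every library, at 3.55, 7.25, 9.49 and 16.2 TPM. Over the 32 libraries, IGF1R averaged 1.61 ± 4.09 TPM, SIRT1 2.08 ± 5.40 TPM and FOXO1 0.338 ± 1.39 TPM, with medians of 0.

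The first question was whether circRNAs of these genes changed between 10 and 20 years. INSR was found in 11 of 16 libraries at 10 years (median 15.5 TPM, highest 79.6 TPM) and in 9 of 16 at 20 years (median 5.38 TPM, highest 52.2 TPM). MTOR was found in 10 libraries at 10 years (median 9.23 TPM) and 13 at 20 years (median 9.57 TPM), RICTOR in 12 (median 9.34 TPM) and 13 (median 8.54 TPM), and RPTOR in 6 and 8. The age groups overlapped in all 4. Of the 3834 host genes found in at least 8 libraries, which include these 4, 0 passed an adjusted p of 0.05 in limma with region and sex as covariates (0.0% called), and so 0 of the 4. At an unadjusted p under 0.05, limma called 257 of the 3834 (6.7%) and 0 of the 4. By limma voom on the recovered reads 6 host genes passed (0.156%), 0 of them members. The difference in log2(summed TPM + 2.455), 20 minus 10 years, was -0.69 for INSR (95% interval -1.85 to 0.46, adjusted p = 0.852 in limma), 0.23 for MTOR (-0.78 to 1.24), 0.02 for RICTOR (-1.11 to 1.15) and 0.27 for RPTOR (-0.60 to 1.15). This scale understates changes of low values. The intervals thus leave room for a change of over 1 log2 unit in at least 1 direction for each gene.

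At the level of single circRNAs, 17 of the 60 passed the filter of the study's methods on reads and libraries: 6 of RICTOR, 5 of MTOR, 3 of RPTOR and 1 each of INSR, FOXO1 and SIRT1. Of these 17, 4 were found in a single library, each 1 of the 5 with over 95% clean reads. By a permutation test of 16 against 16 libraries, 0 of the 17 differed with age at an unadjusted p under 0.05, beside 613 of all 17050 kept circRNAs (3.6%), and none of the 17050 passed after adjustment (smallest adjusted p = 0.256). A circRNA found in only a few libraries could not pass this test, even with all of them in a single group. For example, an RPTOR circRNA in 3 male and 0 female libraries had a permutation p of 0.225 for sex. For such circRNAs the lack of a call for age or sex was fixed in advance. The INSR circRNA of 168 bases averaged 8.00 ± 13.96 TPM at 20 years and 3.70 ± 8.05 TPM at 10 years (SD, n = 16 each, permutation p = 0.322). Among the 60, 22 were found at both ages, 19 at 10 years only and 19 at 20 years only. Those found in a single library, 30 of the 60, could only be found at a single age. These counts are thus not read as a difference with age, and the shares over all circRNAs were not counted.

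The second question was sex. INSR was found in 12 of 16 female libraries (median 13.6 TPM) and 8 of 16 male ones (median 1.16 TPM), MTOR in 13 (median 11.5 TPM) and 10 (median 7.24 TPM), RICTOR in 13 (median 7.64 TPM) and 12 (median 14.7 TPM), and RPTOR in 5 and 9. The groups overlapped in each gene. Again 0 of the 3834 host genes and 0 of the 4 passed an adjusted p of 0.05 in limma (0.0% called); 273 (7.12%) and 0 of the 4 had an unadjusted p under 0.05. In limma voom 1 host gene passed (0.0261%), not a member. The male minus female difference in log2(summed TPM + 2.455) was -0.93 for INSR (95% interval -2.08 to 0.23), -0.58 for MTOR (-1.59 to 0.43), 0.18 for RICTOR (-0.96 to 1.31) and 0.72 for RPTOR (-0.15 to 1.60), with adjusted p of 0.812 to 0.978 in limma.

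Of the 17 kept circRNAs, 1 differed between the sexes in the permutation test, beside 597 of 17050 in either direction (3.5%) and 244 higher in females (1.43%). This was a RICTOR circRNA of 6875 bases (38803544 to 38810418). It was found in 5 female libraries, at 78.2 TPM in DG, 9.84 TPM in PCC and 9.14 TPM in CA1 of 10-year-old females and at 13.0 TPM in TC and 12.4 TPM in PC of 20-year-old females, and in 1 male library, OC of 20-year-old males, at 8.09 TPM. Females averaged 7.66 ± 19.5 TPM and males 0.506 ± 2.02 TPM (SD, n = 16 each, permutation p = 0.0441, adjusted p = 1). This circRNA passed the filter only by the rule of at least 30 reads in total. Of its 67 reads, 15 were in the male library, so it entered the test through the female libraries, where it was high. Its call is thus not independent of the filter. The DG library held 13 reads for this circRNA at 6.02 TPM each. Without that library the difference, male minus female, was -2.45 TPM instead of -7.16 TPM (permutation p = 0.068). Paired by region and age, the difference had an exact sign permutation p of 0.0625. The sex result for the members was thus a single circRNA with a p close to the threshold. Another RICTOR circRNA, of 18745 bases, went the other way, found in 5 male libraries and 1 female library (4.34 ± 7.88 against 0.593 ± 2.37 TPM, SD, n = 16 each, permutation p = 0.0954).

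The age difference was also compared between the sexes. In limma, 3 of 3834 host genes passed for this interaction (0.0782%) and 270 had an unadjusted p under 0.05 (7.04%), with 0 of the 4 members in either count. The age difference in males minus that in females was 1.08 log2 units for RICTOR (SE 1.11) and -0.67 for INSR (SE 1.15).

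**Figure D3:**
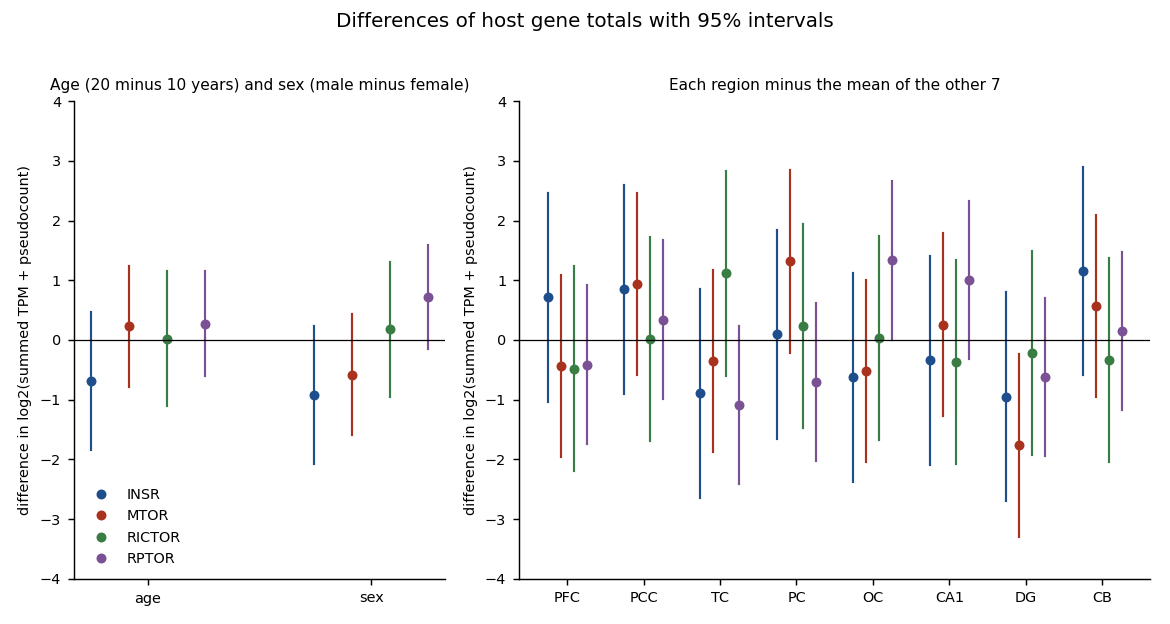
Differences of host gene totals for INSR, MTOR, RICTOR and RPTOR on the scale of log2(summed TPM + 2.455), from limma, with points for estimates and lines for 95% intervals. All age and sex intervals cross 0; of the region intervals, those of MTOR in DG (-1.77) and RPTOR in OC (1.33) lie to 1 side of 0.

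The third question was region, each region's 4 libraries against the rest. Of the 3834 host genes, 310 passed an adjusted p of 0.05 in limma in at least 1 region (8.09%), and 0 of the 4 members did. At an unadjusted p under 0.05 the counts were 1829 (47.7%) and 2 of 4. These were MTOR, lower in DG by 1.77 log2 units (SE 0.75, adjusted p = 0.293 in limma), and RPTOR, higher in OC by 1.33 (SE 0.65, adjusted p = 0.998 in limma). MTOR was at 0 in 3 DG libraries, of 43202 to 273137 reads, and at 8.21 TPM in the fourth. DG had the fewest reads of the regions (422371), and the median log2 difference of all 3834 host genes there was -0.45. At an unadjusted p under 0.05, limma called 406 of them lower and 88 higher in DG, and limma voom 169 lower and 172 higher. By limma voom 323 host genes passed in at least 1 region (8.42%), again without a member. For INSR the estimates ran from -0.95 in DG to 1.15 in CB (SE 0.86 each), and for RICTOR from -0.48 in PFC to 1.11 in TC (SE 0.84 each), and no pair of regions was tested against each other.

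Among single circRNAs, 1 of the 17 passed the exact permutation test at p under 0.01 in any region, beside 1480 of 17050 (8.68%). The 4 found in a single library could not pass, as their smallest exact permutation p in any region was 0.125. For circRNAs in so few libraries the lack of a call was fixed in advance here too. The circRNA called was an MTOR circRNA of 10359 bases (14300335 to 14310693) that was higher in PCC, as were 124 of 17050 (0.727%). PCC held it at 61.9 TPM in 10-year-old males (21 reads), 11.9 TPM in 20-year-old females (39 reads) and 8.43 TPM in 10-year-old females (6 reads), but at 0 in 20-year-old males. Of the other 28 libraries only PFC of 10-year-old females had it, at 4.14 TPM (5 reads). It passed the filter only by the rule of at least 30 reads in total. All but these 5 of its 71 reads were in PCC, so it entered the test through the region where it was high. Its p-values in PCC are thus not independent of the filter. PCC averaged 20.6 ± 28.02 TPM (SD, n = 4) and the rest 0.148 ± 0.782 TPM (SD, n = 28), a difference of 20.4 TPM (exact permutation p = 0.000807, adjusted p = 0.751). limma on log2 values gave a difference of 2.30 (SE 0.40) and an adjusted p of 0.00992, beside 16 of 17050 circRNAs called in PCC (0.0938%), and limma voom on reads 3.28 (SE 0.91) and an adjusted p of 0.31. Without the PCC library of 10-year-old males, the difference fell to 6.64 TPM (exact permutation p = 0.00645). The other 2 MTOR circRNAs with the same lower end, of 446 and 5445 bases, were at 0 in PCC.

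**Figure D4:**
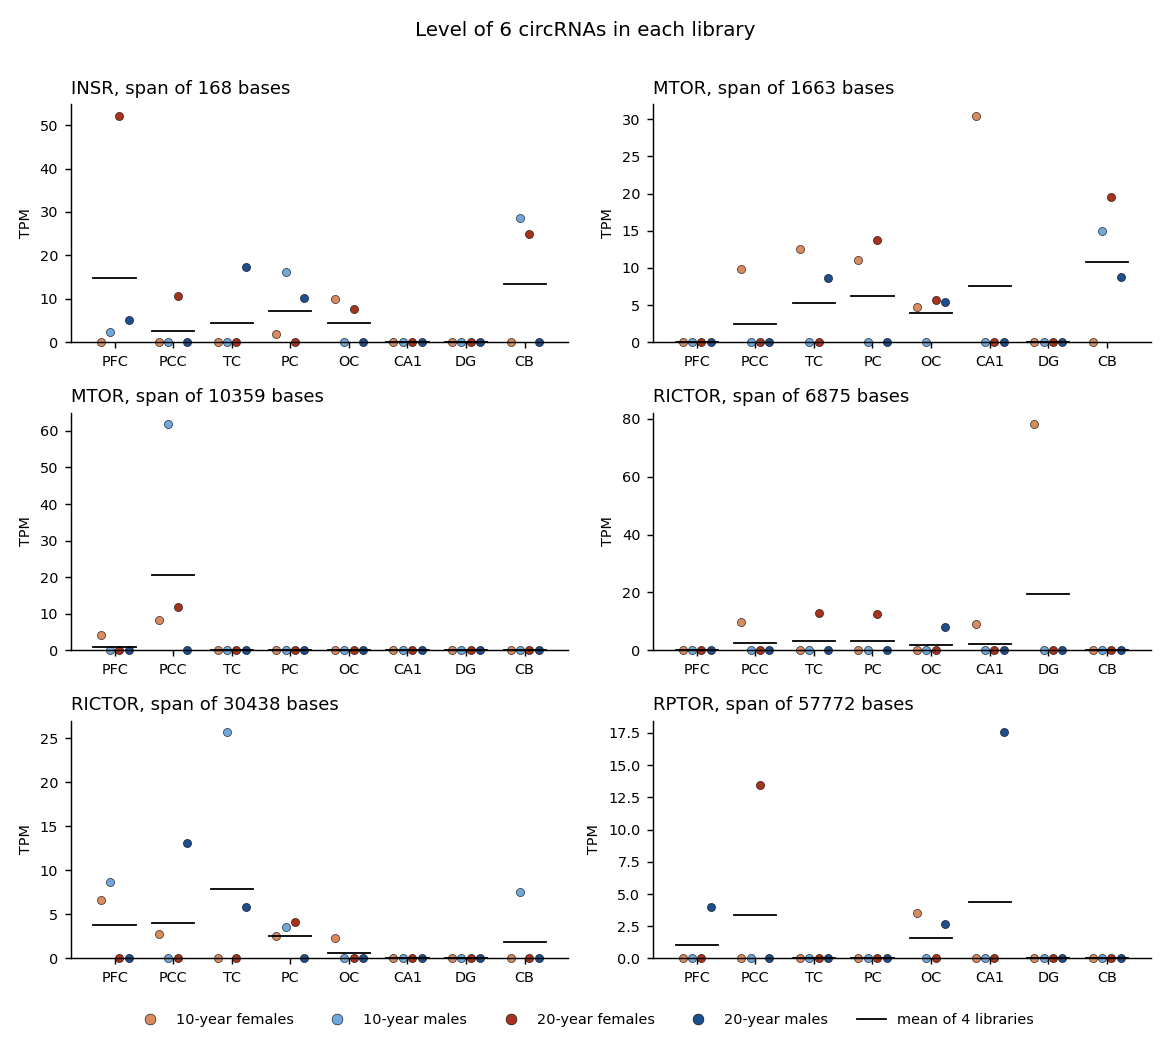
TPM of 6 circRNAs in each library, by region, with points coloured by pool and a line at the mean of 4 libraries. The MTOR circRNA of 10359 bases is above 0 in 3 PCC libraries and 1 PFC library only, and the RICTOR circRNA of 6875 bases has 1 DG library at 78.2 TPM above all others.

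Patterns over libraries were compared by the correlation of log2 totals among 2424 host genes found in at least 16 libraries, which share depth and animals. The totals most like MTOR were those of C17ORF85 (Pearson's r = 0.687) and FAM105B (r = 0.644), those most like INSR were ASAP2 (r = 0.619) and MRPL48 (r = 0.61), and those most like RICTOR were ANO6 (r = 0.601) and PTPRR (r = 0.582), over 32 libraries. These genes were picked as the 2 highest of the 2424 for each member, so their r values are high by selection and were not tested. RPTOR, found in 14 libraries, was not compared. Between members, r was 0.0909 for INSR and MTOR, 0.0834 for MTOR and RICTOR and -0.173 for INSR and RICTOR.

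Of 121 further pathway genes listed in 11 roles, 79 had circRNAs, 534 circRNAs with 65818 reads, most of them from a few genes. The median over the 121 was 28 reads, below the 281 to 529 reads of RPTOR, INSR, RICTOR and MTOR. The remaining members were closer to that median or below it, with 54 reads of SIRT1, 37 of IGF1R, 30 of FOXO1 and 0 of FOXO3. Each circRNA is counted by reads over its junction only, and reads were not divided by length. A gene's total sums all its circRNAs, 1 to 40 in the genes named below, and whether totals depend on gene size was not tested. PIK3C3, the class III PI3-kinase of autophagy, had 40 circRNAs and 10111 reads in 32 libraries (303 ± 134 TPM, SD, n = 32), and FNIP1, a partner of the amino acid sensing protein folliculin, had 33 circRNAs and 4842 reads. In the same roles, PIK3R3, a regulatory subunit of PI3K, had 3112 reads and the GATOR2 subunit SEH1L 2080. In other roles, the AKT-related kinase SGK3 had 2667 reads, the acetyltransferases EP300 and CREBBP 2618 and 1880, and the ribosomal S6 kinase RPS6KB1 2568. The mTORC1 activator RHEB had 2079 reads, its inhibitor TSC2 2017, the adaptors SOS2 and SHC3 1536 and 1172, and the kinase STK11, upstream of AMPK, 1535. AMPK's own catalytic subunit PRKAA1 had 753 reads, the mTOR subunits DEPTOR and MAPKAP1 453 and 334, and EEF2K, which restrains translation, 445. Ligands, binding proteins and receptors gave little, with 78 reads of IGF2R, 21 of KL and 17 of IGFBP3. MTOR and RICTOR thus stood above DEPTOR and MAPKAP1 but below the leading gene of most other roles.

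**Figure D5:**
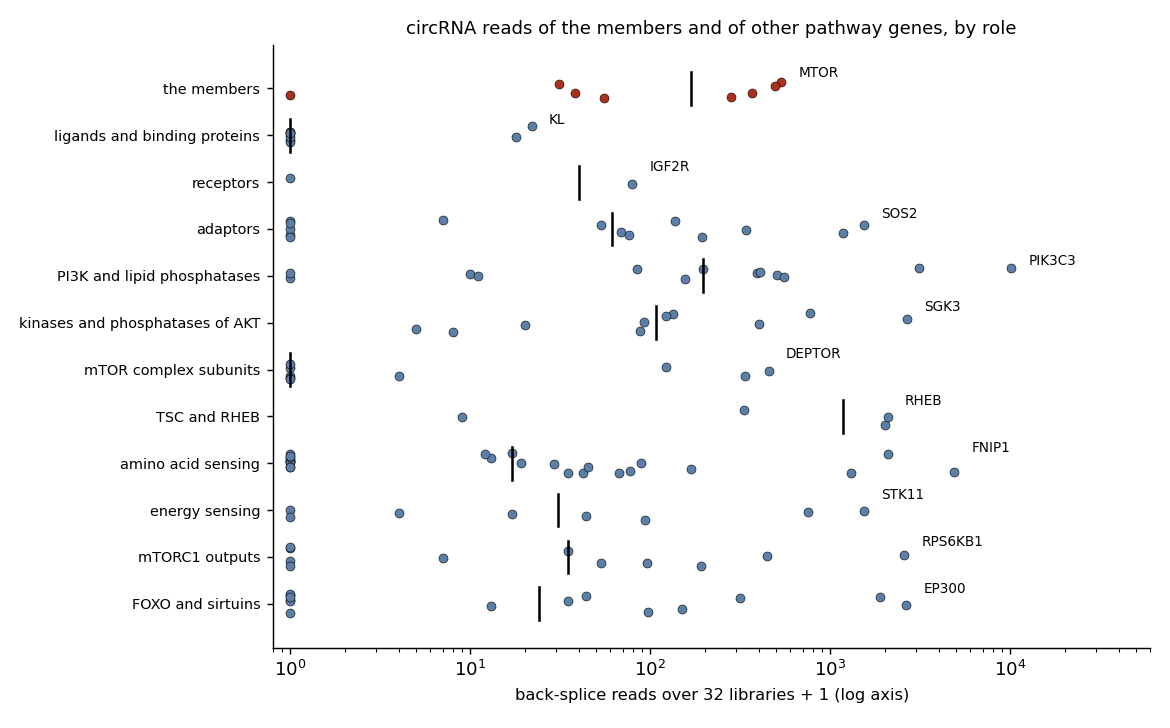
Back-splice reads over 32 libraries, plus 1, on a log axis for the 8 members and other pathway genes grouped by role, with a line at the median of the genes plotted in each role and the name of the highest of them. PIK3C3 reaches 10111 reads and MTOR, the highest member, 529.

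Of the 121, 43 were found in at least 8 libraries and tested with the 3834. None passed for age or sex in limma, while 4 had an unadjusted p under 0.05 in each comparison. In CB, PIK3R3 was among the genes called higher, as were 3.5% of all host genes. It was at 487, 628, 366 and 519 TPM in CB and at 0 to 145 TPM elsewhere (median 38.0 TPM, n = 28), higher by 4.09 on the log2 scale (SE 0.81, adjusted p = 0.000829 in limma), with no overlap. SGK3 and FNIP1 were the 2 called lower in CB, beside 3.29% of all host genes. SGK3 was at 0 in 3 CB libraries and 11.9 TPM in the fourth, and at 12.3 to 232 TPM elsewhere, a log2 difference of -4.53 (SE 0.64, adjusted p = 5.29e-06 in limma). FNIP1 was at 25.0 to 70.6 TPM in CB and 54.0 to 309 TPM elsewhere, a log2 difference of -1.63 (SE 0.49, adjusted p = 0.036 in limma, 0.0738 by limma voom). In DG, WDR59, a GATOR2 subunit, was at 0 in 3 libraries and 12.03 TPM in the fourth, against a median of 40.3 TPM elsewhere (log2 difference -2.98, SE 0.73, adjusted p = 0.0266 in limma, 0.154 by limma voom), as were 1.15% of host genes lower there. The median log2 difference of all 3834 host genes in DG was -0.45. In such bulk tissue fewer cells of a type and less RNA per cell cannot be told apart. Summed markers of cerebellar granule cells were at 59.8 to 189 TPM in CB and at most 33.0 TPM elsewhere, and those of Purkinje cells (3 of 5 in the table) at 48.4 to 112 TPM in CB and at most 77.9 TPM elsewhere. Markers of cortical excitatory neurons (3 of 4) were at 0 in all 4 CB libraries, at 8.29 to 184 TPM in neocortex (median 46.7 TPM) and at 0 to 93.1 TPM in hippocampus (median 51.3 TPM). Markers of astrocytes (4 of 6) were at 0 in CB, at 0 to 34.5 TPM in neocortex (median 12.5 TPM) and at 0 to 27.3 TPM in hippocampus (median 0). Those of inhibitory neurons (2 of 3) were at 0 in CB, at most 50.1 TPM in neocortex and at most 8.21 TPM in hippocampus. Those of oligodendrocytes (4 of 8) were at most 2.17 TPM in CB, 38.3 TPM in neocortex (median 0) and 47.3 TPM in hippocampus (median 20.2 TPM). The granule cell sum rested mostly on GRM4, and the inhibitory neuron sum on GAD1 (88 reads, against 2 of GAD2). Most reads of the astrocyte sum came from SLC1A2 (361), and most of the excitatory neuron sum from CAMK2A (928). A marker sum of 0 does not show that a cell type was absent. The part of these cell types in the differences was not tested. For the members themselves, CB held a mean of 66.7 ± 42.8 TPM over all 60 circRNAs (SD, n = 4), within the range of the other regions, from 36.5 ± 19.4 TPM in OC to 77.5 ± 44.4 TPM in PCC.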

How the data were processed

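CircRNA values of 32 libraries were analysed. Per the study's methods, the authors trimmed reads with Cutadapt, aligned them with bwa and called circRNAs with at least 2 junction reads by CIRI2. The deposited table gives a value per circRNA and library in TPM; its denominator is not given in the sources used here. Within 0.0121 TPM, each value was a whole multiple of a constant per library, and reads were recovered from this. The filter of the methods kept 17050 circRNAs. Age and sex were tested by permutation (100000 draws), regions by exact permutation, and host gene totals across all genes by limma (Benjamini-Hochberg adjustment) after adding 2.455 TPM, the median of the 32 lowest nonzero values (1 per library), and taking log2. edgeR and DESeq2 were not run. Named were all member genes, each gene's circRNA with most reads, circRNAs past a threshold, the 2 host genes most like each member found in at least 16 libraries, and pathway genes past a threshold or among the 2 with most reads in a role, except that INSRR had none and that some listed genes are not reported here. The RICTOR circRNAs of 30438 and 18745 bases were chosen after their values were seen. For 5 listed genes absent by symbol, circRNAs were matched by Ensembl ID. Members and lists were chosen with earlier results of these data known. Libraries of a pool come from the same animals, which pairs them across regions; median correlations of same-pool deviations were 0.0165 to 0.0352. The scripts were tested on simulated data. Python 3.11.15, NumPy 2.4.6, SciPy 1.17.1, pandas 2.3.3, R 4.3.3 and limma 3.58.1 were used.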

Additional observations from a re-analysis of the deposited data

Results flagged for a closer look

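Among 31 groups of 4 libraries of 1 region, for INSR, MTOR, RICTOR and RPTOR totals, 6 had a library far from the other 3 by Dixon's ratio. The usual chance rate of about 1 in 20 groups assumes normal values and does not hold for totals with this many zeros, so the number of such groups is not read against it. In 4 of them the other 3 libraries were at 0, which sets the ratio to its highest value for any single library above 0: INSR in DG of 10-year-old females (48.1 TPM), MTOR in DG of 20-year-old females (8.21 TPM), RPTOR in PC of 20-year-old males (3.83 TPM) and RPTOR in DG of 20-year-old males (5.27 TPM). RICTOR stood at 90.2 TPM in DG of 10-year-old females, beside a next value of 11.4 TPM, and RPTOR at 24.0 TPM in CB of 10-year-old males, beside 2.17 TPM.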

How the results depend on the processing

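Depth limits these results: most values above 0 rested on 2 to 10 reads, and a 0 in a shallow library does not show absence. In every alternative run, 0 member host gene totals passed for age, sex or region.

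For age, 0 members were called, and 0 to 1 without a pool. For sex, 1 was called, 0 by the unpaired t-test on 16 against 16, by limma on log2 values, by voom, in both replicate block fits and without the 5 libraries of over 95% clean reads, and 0 to 2 without a pool. For regions, 1 was called, 2 over all circRNAs of the table, 0 by voom and 0 to 1 without a pool. The RICTOR circRNA of 6875 bases lost its call on leaving out any of 20 of 32 libraries in turn (permutation p = 0.0271 to 0.0704). The MTOR circRNA of 10359 bases kept its own (exact permutation p = 0.000223 to 0.00645), but not without the pools 10F, 10M or 20F (p = 0.0109 each).

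Over all host genes, the replicate block (correlation within pools -0.0409) raised the calls for age from 0 to 13 and for sex from 0 to 7, voom to 6 and 1, and kept circRNAs alone to 2 for age. A negative correlation shrinks the standard errors of age and sex, which differ between pools. The added calls of the replicate block are thus not read as age or sex differences. Leaving out a pool gave 0 to 5 for age, 1 to 3 for sex and 140 to 241 instead of 329 calls over the 8 regions.

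Without a call before or after, signs turned in 11 cases. Over kept circRNAs alone the age difference of INSR was 0.54 and of MTOR -0.36. That of RICTOR was -0.050 by voom, -0.069 with size factors and -0.11 without the 5 libraries, where its sex difference was -0.24 and the age difference of RPTOR -0.18. Without a pool, RICTOR's age difference ran from -0.53 to 0.56 and its sex difference from -0.37 to 0.72.

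PIK3R3 and SGK3 kept their calls in CB under every alternative run. FNIP1 lost its own in 7 alternatives and WDR59 in 6; these 4 kept their direction. Not run were edgeR and DESeq2, and at least 16 libraries left no member circRNA. Voom and leaving out single libraries were chosen after seeing the data.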
